A study of Rattus norvegicus with 6 samples.

Results

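The genes described here encode subunits of NF-κB (Nfkb1, Nfkb2, Rel, Rela and Relb) and proteins that inhibit it or feed back on its signalling (Nfkbia, Nfkbib, Nfkbie, Tnfaip3 and Birc3). These 10 genes were named for their role in the pathway, with earlier results of these data known. By gene symbol, 6 of the 10 were found in an expression table of 16499 symbols, each with 1 transcript row: Rela, Nfkb2, Nfkbia, Nfkbib, Nfkbie and Birc3. No row matched the other 4 by symbol or by RefSeq accession, so Nfkb1, Rel, Relb and Tnfaip3 were not analysed here.

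The cells were RA synovial fibroblast-like cells (RASFLs), the adherent cells grown out of the joint lining, taken from female Wistar rats with collagen-induced arthritis before any therapy. Cells of 2 rats were each divided over 3 media, and 1 library was made per rat and medium, which gives 6 libraries in all. Per the study's methods, all cells were harvested at a single time, days after they entered their medium. The media differed in their serum: fetal bovine (FBS), rat serum without the treatment (MS−, labelled AP-), or serum of rats that had received mechanical stimulation by needle for 18 days per the labels (MS+, labelled AP+ and acupuncture). One label field calls the MS− animals healthy and another calls them arthritic, and the time of MS− sampling is described inconsistently, so the health of those serum donors was not settled here. The number of animals behind each serum and their age are not given in the labels. The replicate is thus the rat that supplied the cells, and p-values do not cover the spread between serum donors.

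NF-κB is a family of transcription factors that form dimers through a shared DNA-binding region. In resting cells IκB proteins, among them the products of Nfkbia, Nfkbib and Nfkbie, hold the dimers in the cytoplasm. Signals such as TNF or IL-1 lead to phosphorylation and breakdown of IκB, and the freed dimers then enter the nucleus and switch on inflammatory genes. Several of the induced genes encode the pathway's own parts, Nfkbia and Nfkb2 being well-known examples, so that the response limits itself. In arthritic joints the pathway is known for driving cytokines and matrix-degrading enzymes in synovial fibroblasts.

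The sequences upstream of 2 genes that were higher in rat serum are shown here, and that of Rela beside them. Those 2 hold a match to the letters of the κB site, the DNA element that NF-κB binds, and that of Rela does not. They are the 250 bases before the annotated start, from RefSeq on assembly GRCr8, where 8 of the 10 genes had an entry. Each is written 5′ to 3′ in the direction of the gene, with matches to the κB consensus (a 10-base motif with a run of G, a variable middle and a run of C, searched on both strands) in capitals. The regions are chr1:255108124-255108373 on the plus strand for Nfkb2, chr6:78597073-78597322 on the minus strand for Nfkbia and chr1:212354086-212354335 on the plus strand for Rela.
Nfkb2: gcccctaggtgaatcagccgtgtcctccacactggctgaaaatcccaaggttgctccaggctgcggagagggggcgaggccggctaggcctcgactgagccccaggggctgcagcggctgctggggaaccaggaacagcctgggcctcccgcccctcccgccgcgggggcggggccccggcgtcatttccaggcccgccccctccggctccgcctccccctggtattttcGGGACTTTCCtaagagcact
Nfkbia: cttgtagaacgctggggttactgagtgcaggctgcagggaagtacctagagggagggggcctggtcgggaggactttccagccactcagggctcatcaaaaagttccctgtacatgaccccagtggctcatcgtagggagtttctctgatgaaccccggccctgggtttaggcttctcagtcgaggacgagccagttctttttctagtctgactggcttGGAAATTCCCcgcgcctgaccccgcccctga
Rela: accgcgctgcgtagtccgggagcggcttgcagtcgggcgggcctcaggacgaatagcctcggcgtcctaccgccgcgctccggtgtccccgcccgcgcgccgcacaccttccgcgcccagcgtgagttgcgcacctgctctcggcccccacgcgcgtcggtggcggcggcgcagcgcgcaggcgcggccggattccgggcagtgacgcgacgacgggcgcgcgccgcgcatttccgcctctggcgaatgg

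In Nfkb2 the match is the classic κB decamer, first known from an immunoglobulin enhancer, and it lies 20 to 11 bases before the start. In Nfkbia the match is another decamer, 31 to 22 bases before the start. Nfkbie has 1 match farther out, 164 to 155 bases before the start, shown here with its flanks.
Nfkbie: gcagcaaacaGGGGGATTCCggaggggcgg
No match was found in the windows of Rela, Nfkbib and Nfkb1, while those of Tnfaip3 and Rel hold several. The consensus was present in the same window of 6.33% of 33469 promoters, against 5 of these 8. The decamer in capitals for Nfkb2, a form of the consensus, was in 0.0956% of them, and 2 of the 8 (Nfkb2 and Tnfaip3) had it on either strand. That in capitals for Nfkbia, another form, was in 0.0687% and in 1 of the 8 (Nfkbia). A match to letters does not show that a site is bound, and Birc3 and Relb were not searched. Nfkbie holds a match and did not pass the test described below in any comparison. Nfkbib holds none and passed for MS+ over FBS in the fit with the rat as a term. A relation between matches and levels was not tested.

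**Figure D1:**
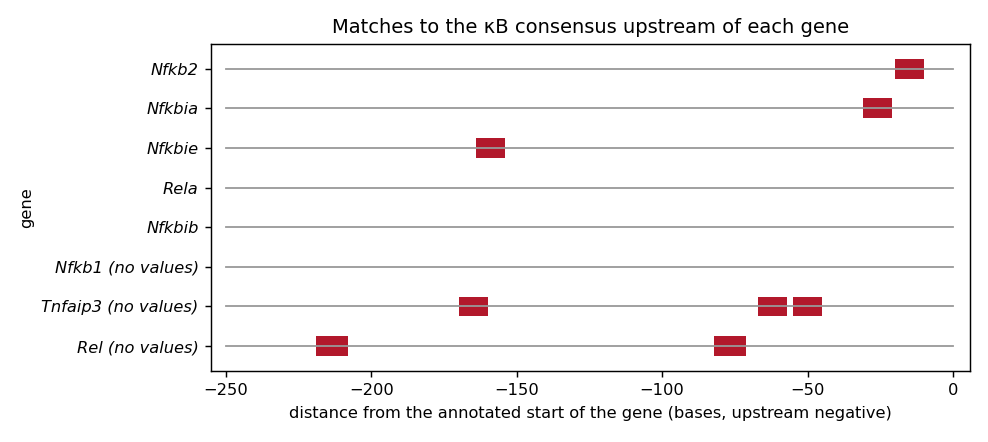
Positions of κB consensus matches (red bars, 10 bases wide) in the 250 bases before the annotated start of 8 genes, with distance in bases on the x axis. The matches of Nfkb2 and Nfkbia lie within 31 bases of the start, and the lines of Rela, Nfkbib and Nfkb1 carry none.

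Among the 6 measured genes, Nfkbia and Nfkb2 stood lowest in FBS, higher in MS− and highest in MS+, with no overlap between the libraries of the 3 groups. The mean of MS+ over that of FBS was 2.75 for Nfkbia and 1.69 for Nfkb2 as linear ratios of CPM, the read count scaled to library size, and both passed the test. From MS− to MS+ serum the 6 genes gave no call without regard to the rat of origin, and Nfkbia was called once the rat was a term of the fit. Rela, the main activating subunit, did not pass in any of the 3 comparisons. The ordered pattern of FBS below MS− below MS+ without overlap held in 2 of the 6 genes and in 5.38% of all features tested.

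**Figure D2:**
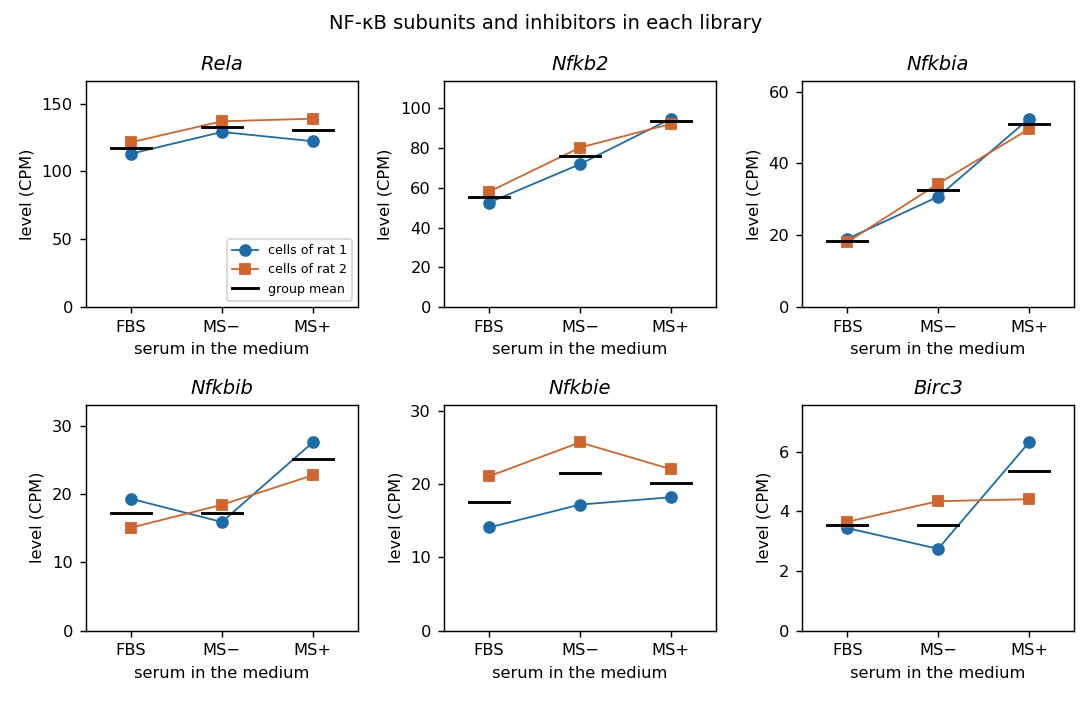
Level in CPM (y axis, starting at 0) of the 6 measured genes in each of the 6 libraries, by serum in the medium, with cells of rat 1 as circles, cells of rat 2 as squares and the group mean as a black bar. Nfkbia rises from about 18.5 in FBS to 51.0 in MS+, Rela stays between 113 and 139, and the 2 rats stand apart in every medium for Nfkbie.

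Rela encodes p65, the subunit with a strong activation domain. Its transcript (NM_199267, rn4 chromosome 1, 208262669 to 208273148, plus strand) measured 113 and 122 CPM in the FBS libraries of rats 1 and 2, 129 and 137 CPM in MS−, and 122 and 139 CPM in MS+. Both libraries of each rat serum lay above both FBS libraries, while MS+ and MS− overlapped. The lowest MS+ library (122.3 CPM, rat 1) was almost equal to the highest FBS library (121.5 CPM, rat 2). The difference in log2(CPM + 1) was 0.15 (SE 0.10, 95% interval -0.09 to 0.40) for MS+ over FBS, 0.18 (SE 0.10, -0.06 to 0.43) for MS− over FBS, and -0.03 (SE 0.10, -0.27 to 0.22) for MS+ over MS−. The limma adjusted p was 0.390, 0.376 and 0.933. These intervals leave out a change of 2-fold in either direction, though smaller changes remain possible.

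Nfkb2 encodes p100, which acts as an inhibitor until it is cut to the DNA-binding subunit p52 in the non-canonical branch of the pathway. Its transcript (NM_001008349, rn4 chromosome 1, 251521559 to 251527815, plus strand) was counted in 321 to 526 reads per library. It measured 52.5 and 58.0 CPM in FBS, 71.9 and 80.3 CPM in MS−, and 94.8 and 92.1 CPM in MS+. Every MS+ library lay above every MS− library, and every MS− library above every FBS library. The log2 difference of MS+ from FBS was 0.75 (SE 0.11, limma adjusted p 0.0112), at 0.84 in rat 1 and 0.66 in rat 2. Leaving out FBS replicate 1, MS+ replicate 1 or MS+ replicate 2 ended this call (adjusted p 0.0687, 0.0860 and 0.0647), with differences of 0.68 to 0.82 over all 6 omissions. MS− stood above FBS by 0.45 (SE 0.11). The adjusted p in limma was 0.0665, and 0.00437 when the rat entered the fit as a block (0.00374 to 0.303 over the alternatives). For MS+ over MS− it was 0.30 (SE 0.11, adjusted p 0.281), at 0.39 in rat 1 and 0.20 in rat 2, and no alternative called it.

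Nfkbia encodes IκBα, the inhibitor that NF-κB itself induces within a short time of a stimulus and that closes the response again. Here Nfkbia was measured only at the harvest, days into culture, so early induction was not followed. Its transcript (NM_001105720, rn4 chromosome 6, 75729302 to 75732475, minus strand) was counted in 109 to 291 reads per library. It measured 19.0 and 18.1 CPM in FBS, 30.7 and 34.3 CPM in MS−, and 52.4 and 49.6 CPM in MS+. The libraries of a medium lay close together and the 3 media did not overlap. From FBS to MS+ it rose by 1.41 on the log2 scale (SE 0.12, limma adjusted p 0.00342), at 1.42 in rat 1 and 1.41 in rat 2. It ranked 26 of 9820 features by p in that comparison and was the single member past a joint threshold of at least 2-fold and unadjusted p under 0.05, which 2.37% of features met in the higher direction. Without MS+ replicate 1 the adjusted p was 0.0540.

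From FBS to MS−, Nfkbia rose by 0.78 (SE 0.12, limma adjusted p 0.0196), at 0.67 in rat 1 and 0.89 in rat 2. That call was lost in 5 of the 6 fits that left out a library: FBS replicate 1 (0.102), FBS replicate 2 (0.0827), MS− replicate 1 (0.0917), MS− replicate 2 (0.130) or MS+ replicate 1 (0.0511). The difference itself stayed between 0.70 and 0.86. For MS+ over MS− it was 0.63 (SE 0.12), at 0.75 in rat 1 and 0.52 in rat 2. Its limma adjusted p there was 0.126 without the block and 0.00550 with it, and ranged from 0.00270 to 0.488 over the alternatives. The 3 comparisons share libraries, so their values are not independent of each other.

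The ratio of the Nfkbia transcript to that of Rela within a library was given as a description of RNA, not of protein. It was 0.168 and 0.149 in FBS, 0.238 and 0.251 in MS−, and 0.429 and 0.357 in MS+. The ratio of Nfkb2 to Rela was 0.465 and 0.477 in FBS, 0.557 and 0.586 in MS−, and 0.775 and 0.663 in MS+. For both ratios the media were ordered alike in each rat, and within a medium the rats differed most in MS+. As Rela stayed between 113 and 139 CPM, this order largely repeats that of Nfkbia and Nfkb2 themselves. The ratios are of CPM without correction for transcript length, so only their change between libraries can be read.

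**Figure D3:**
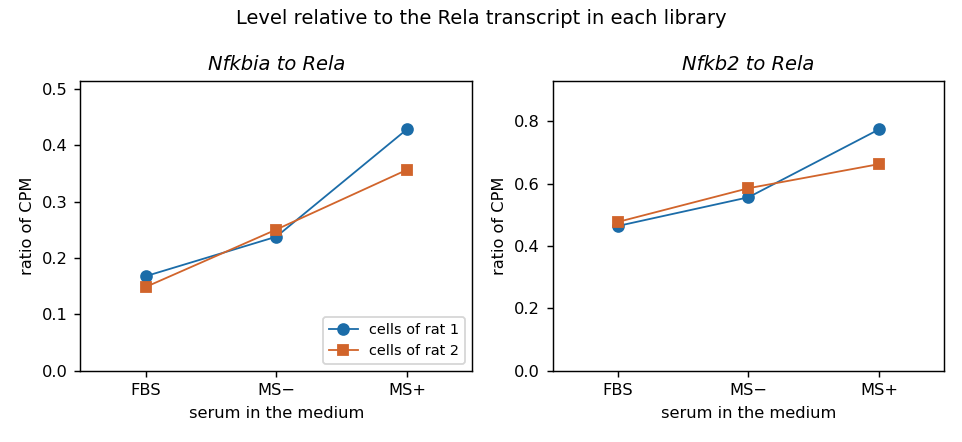
Ratio of CPM of Nfkbia (left) and of Nfkb2 (right) to Rela in each library (y axis, starting at 0), by serum in the medium, with cells of rat 1 as circles and of rat 2 as squares. In both panels all MS+ points lie above all MS− points and those above the FBS points, with Nfkbia to Rela going from 0.149 to 0.168 in FBS up to 0.357 to 0.429 in MS+.

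Nfkbib encodes IκBβ, an inhibitor that is not known as a strong NF-κB target. Its transcript (NM_030867, rn4 chromosome 1, 83865440 to 83873010, minus strand) measured 19.3 and 15.1 CPM in FBS, 15.9 and 18.4 CPM in MS−, and 27.6 and 22.8 CPM in MS+. Here FBS and MS− overlapped and both MS+ libraries were higher than the other 4. The log2 difference was 0.53 (SE 0.18, limma adjusted p 0.119) between MS+ and FBS, and blocking on the rat gave 0.0261 (0.0183 to 0.396 over the alternatives). MS+ differed from MS− by 0.52 (SE 0.18, adjusted p 0.264), at 0.76 in rat 1 and 0.29 in rat 2. With the block that p was 0.0577 in limma, 0.0496 in edgeR and 0.0434 in limma-voom, and the range over all alternatives was 0.0434 to 0.594. For MS− over FBS the difference was 0.0043 (SE 0.18, 95% interval -0.43 to 0.44).

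Nfkbie encodes IκBε, a later-acting feedback inhibitor. Its transcript (NM_199111, rn4 chromosome 9, 11044113 to 11050948, minus strand) measured 14.1 and 21.1 CPM in FBS, 17.2 and 25.7 CPM in MS−, and 18.2 and 22.02 CPM in MS+. All 3 media overlapped, and the higher value of each pair was that of rat 2. The log2 difference was 0.21 (SE 0.26) for MS+ over FBS, 0.27 (SE 0.26) for MS− over FBS and -0.07 (SE 0.26) for MS+ over MS−, with limma adjusted p of 0.651, 0.602 and 0.938. The 95% intervals ran from -0.40 to 0.82, from -0.34 to 0.88 and from -0.68 to 0.54 in the same order. In the fit with the rat as a block, Nfkbie was higher in rat 2 than in rat 1 by 0.45 (SE 0.13, limma adjusted p 0.0291), in 3 of 3 media. This test was chosen after the values were seen. Of all features, 10.5% differed between the rats at that threshold, and Nfkbie was the single member to do so, the others having adjusted p of 0.339 to 0.990.

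Birc3 encodes cIAP2, a ubiquitin ligase of the TNF receptor complex that is also an NF-κB target, and its neighbour Birc2 encodes a similar protein, so that reads common to both could not be traced here. It was the lowest of the 6 in reads, with 15 to 35 per library (NM_023987, rn4 chromosome 8, 4681895 to 4696856, minus strand). It measured 3.44 and 3.65 CPM in FBS, 2.74 and 4.34 CPM in MS−, and 6.31 and 4.40 CPM in MS+. The highest MS− value and the lowest MS+ value were almost equal, and cells of rat 1 alone showed a clear step to MS+. The log2 difference between MS+ and MS− was 0.49 (SE 0.27, 95% interval -0.15 to 1.13), at 0.96 in rat 1 and 0.02 in rat 2. It was 0.47 (SE 0.27) for MS+ over FBS and -0.02 (SE 0.27) for MS− over FBS. The limma adjusted p was 0.471, 0.310 and 0.974.

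**Figure D4:**
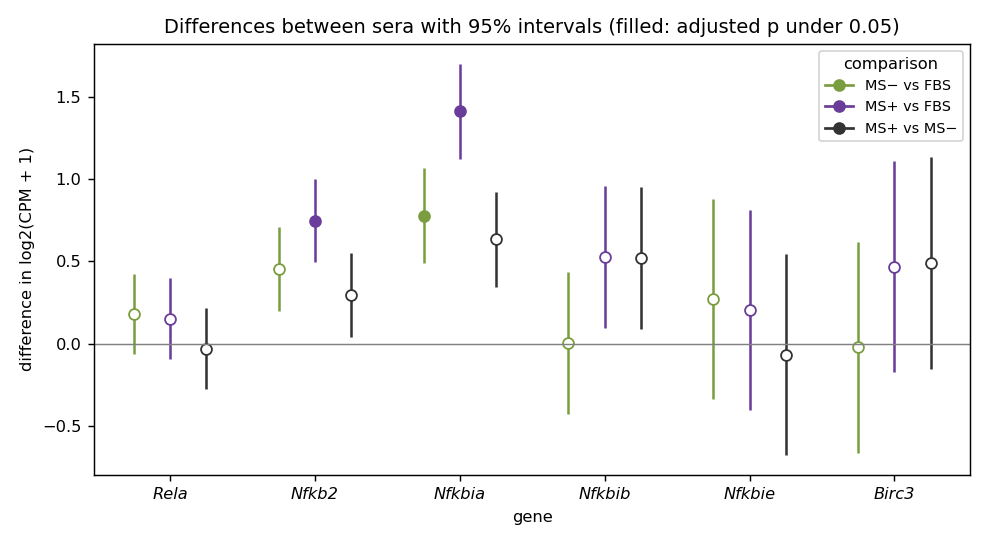
Difference in log2(CPM + 1) (y axis) of the 6 genes in 3 comparisons (colours), with 95% intervals from limma without a block as vertical lines and filled points where the adjusted p was under 0.05. Filled points are those of Nfkbia and Nfkb2 for MS+ against FBS (1.41 and 0.75) and of Nfkbia for MS− against FBS (0.78).

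Set side by side, all 6 genes passed the filter on low values and were at 2.74 CPM or more in every library. In MS+ over FBS, 2 of the 6 rose and 0 fell in limma, where 4.95% of all features rose and 4.66% fell. With the block 3 rose and 0 fell, where 14.4% of all features rose and 13.9% fell. In MS− over FBS, 1 rose and 0 fell (2.09% and 2.72% of features), and with the block 2 rose and 0 fell (10.8% and 9.63%). At an unadjusted p under 0.05 there were 3 of 6 in MS+ over FBS (27.5% of features) and 2 of 6 in MS− over FBS (21.1%). From MS− to MS+, limma called 0 of 6 (0.0102% of features rose and 0.0102% fell), as did edgeR, limma-voom and DESeq2 without a block, and 3 were at an unadjusted p under 0.05 (14.7% of features). With the block, limma called 1 higher and 0 lower, where 5.27% of features rose and 4.78% fell. The median log2 difference of the 6 was 0.50 for MS+ over FBS, 0.23 for MS− over FBS and 0.39 for MS+ over MS−, beside 0.00078, 0.014 and -0.0058 over all features. Both MS+ libraries lay above both MS− libraries in 4 of the 6, against 22.6% of features, and above both FBS libraries in 5 of the 6, against 28.4%. These counts include near-ties. Birc3 had 24 reads in MS− and in MS+ of rat 2 (4.34 and 4.40 CPM). Rela was at 121.5 CPM in FBS of rat 2 and 122.3 CPM in MS+ of rat 1. Both MS− libraries lay above both FBS libraries in 3 of the 6, against 27.1%.

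Over the 6 libraries, which share 2 rats and 3 media, Nfkbia and Nfkb2 were the most alike pair, with a Pearson r of 0.98 in log2(CPM + 1). Birc3 and Nfkbib followed at 0.86 and Nfkbie and Rela at 0.80. The least alike were Nfkbie and Nfkbib, at -0.05. With 6 points these values serve as description.

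The remaining parts of the pathway were described from 5 lists with 99 genes, of which 90 had a row and 65 passed the filter. In limma, 3 of the 65 rose and 0 fell in MS+ over FBS, 6 rose and 0 fell in MS− over FBS, and 0 were called for MS+ over MS−. In the last comparison 6 were at an unadjusted p under 0.05, against 14.7% of all features. There edgeR and limma-voom without a block called 0, and DESeq2 called 2 (Traf3 and Cxcl1). In the blocked fit, 12 rose and 8 fell for MS+ over FBS, 15 rose and 1 fell for MS− over FBS, and 3 rose and 4 fell for MS+ over MS−. The background shares of features called either way with the block were 28.2%, 20.5% and 10.1%, and without it 9.61%, 4.81% and 0.0204%.

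Most ligands that start the pathway were at or near 0. Of 11 ligand genes, 5 (Tnf, Il1b, Ltb, Tnfsf11 and Cd40lg) had 0 reads in all 6 libraries, which allows up to 3 reads or 0.491 to 0.551 CPM in a library. Tnfsf12, which encodes the ligand TWEAK, was the single ligand tested, at 32.6 CPM in FBS, 33.3 CPM in MS− and 40.6 CPM in MS+, and was not called. Of 17 receptor genes 13 were tested and 0 were called without the block, with median differences of 0.24 for MS+ over FBS, 0.31 for MS− over FBS and -0.14 for MS+ over MS−. The blocked fit called 2 lower in MS+ over FBS (Tlr5 and Tnfrsf12a) and 4 higher in MS− over FBS (Il1rap, Il1r1, Tlr4 and Tlr3). For MS+ over MS− it called Il1rl1 higher and Il1rap lower. Of all features, 28.2%, 20.5% and 10.1% were called either way in that fit, in the same order. Il1rap, the co-receptor of IL-1, measured 4.26 and 6.13 CPM in FBS, 10.98 and 13.4 CPM in MS−, and 7.57 and 5.69 CPM in MS+. Its log2 difference was 1.10 between MS− and FBS (limma adjusted p 0.0530, 0.00271 with the block, 0.00164 to 0.263 over the alternatives). It was -0.79 between MS+ and MS− (adjusted p 0.226, 0.0365 with the block, 0.0286 to 0.558).

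Of 22 adaptors and kinases tested, Traf3 alone was called without the block. The blocked fit called 6 in MS+ over FBS (Traf3, Myd88, Traf2 and Tab2 higher, Irak2 and Rbck1 lower), beside 28.2% of all features. It called 2 in MS− over FBS (Traf3 and Myd88 higher), beside 20.5%. For MS+ over MS− it called 2 (Traf3 higher, Map3k14 lower), beside 10.1%. TRAF3 restrains the non-canonical branch by marking the kinase NIK (Map3k14) for breakdown, and NIK starts the cutting of the Nfkb2 product. Traf3 measured 79.2 and 73.4 CPM in FBS, 109.8 and 114 CPM in MS−, and 168 and 154 CPM in MS+, so it too was ordered without overlap. It rose by 1.07 between MS+ and FBS (SE 0.10, limma adjusted p 0.00406; 0.0540 without MS+ replicate 1) and by 0.55 between MS− and FBS (SE 0.10, 0.0289). The latter call was lost without any 1 of the 6 libraries (0.0595 to 0.168). For MS+ over MS− the difference was 0.52 (adjusted p 0.126, 0.00229 with the block, 0.00146 to 0.485 over the alternatives). Map3k14 measured 35.03 and 36.5 CPM in FBS, 38.8 and 38.3 CPM in MS−, and 29.01 and 29.00 CPM in MS+. Its difference between MS+ and MS− was -0.40 (SE 0.11), and its adjusted p of 0.197 became 0.0494 in the blocked fit (0.0466 to 0.580 over the alternatives).

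Of 14 further inhibitors and atypical IκB genes tested, 3 rose in MS− over FBS without the block, and Zc3h12a was called in MS+ over FBS too. Of all features, 2.09% rose in MS− over FBS and 4.95% in MS+ over FBS in that fit. Zc3h12a encodes an RNase that degrades cytokine mRNAs. It measured 29.5 ± 2.06 CPM in FBS, 58.1 ± 8.08 CPM in MS− and 59.7 ± 15.2 CPM in MS+ (SD, n = 2 each). Nfkbiz encodes IκBζ, a nuclear cofactor induced by NF-κB, and measured 22.3 and 25.7 CPM in FBS, 50.1 and 48.1 CPM in MS−, and 43.8 and 30.5 CPM in MS+. Nkiras1 encodes κB-Ras1, which slows the breakdown of IκB, and measured 6.38 and 5.80 CPM in FBS, 12.3 and 14.6 CPM in MS−, and 9.91 and 11.2 CPM in MS+. Their log2 differences between MS− and FBS were 0.95, 1.01 and 1.02 (limma adjusted p 0.0420, 0.0309 and 0.0293). With no filter on low values none of the 3 was called, nor was Zc3h12a with limma-voom. Without either FBS or either MS− library none of the 3 was called (0.0840 to 0.219), nor was Nkiras1 without either MS+ library (0.0623 and 0.0623). For Zc3h12a in MS+ over FBS the difference was 0.97 (0.0272), and the call was lost without either FBS library (0.110 and 0.113), MS+ replicate 1 (0.124) or MS− replicate 1 (0.050), and with no filter on low values. In the same comparison Nfkbiz differed by 0.59 (adjusted p 0.0924, 0.00826 with the block) and Nkiras1 by 0.70 (0.0595, 0.0127 with the block). The blocked fit thus called all 3 genes higher in MS+ as well as in MS−. Of the 14 it called 4 higher and 1 (Commd1) lower in MS+ over FBS, where 14.4% of all features rose and 13.9% fell. In MS− over FBS it called 5 higher and 0 lower, where 10.8% rose and 9.63% fell.

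Of 15 target genes tested, without the block Cxcl1 rose in both rat sera and Ccl2 in MS−. Cxcl1, a chemokine that draws neutrophils, measured 7.86 and 6.30 CPM in FBS, 30.2 and 24.8 CPM in MS−, and 84.7 and 44.6 CPM in MS+, ordered without overlap. Its log2 difference was 2.96 between MS+ and FBS (SE 0.29, limma adjusted p 0.00515), a call kept in all 6 omissions of a library (0.0131 to 0.0389). The MS− to FBS difference was 1.82 (0.0219), a call lost on omitting FBS replicate 1 (0.106) or 2 (0.0927), or MS− replicate 1 (0.143) or 2 (0.0930), and also with no filter on low values or with limma-voom. From MS− to MS+ it was 1.14 (adjusted p 0.181, 0.000569 with the block, 5.70e-05 to 0.519 over the alternatives). Ccl2, a chemokine that draws monocytes, measured 8.81 ± 1.90 CPM in FBS and 30.1 ± 11.1 CPM in MS− (SD, n = 2), a difference of 1.63 (adjusted p 0.0455) that was lost without any 1 of the 6 libraries (0.0576 to 0.223), with no filter on low values and with limma-voom. In MS+ over FBS it differed by 0.95 (SE 0.34, adjusted p 0.125) and was called higher in the blocked fit. Il6 stood the other way, at 12.1 ± 3.04 CPM in FBS and 4.35 ± 2.77 CPM in MS+, with a difference of -1.38 (adjusted p 0.0682, 0.000471 with the block, 0.000395 to 0.265). In MS− Il6 was also lower than in FBS, at 6.64 ± 0.70 CPM, with a difference of -0.76 (limma adjusted p 0.302, 0.0332 with the block). The median of the target list was 0.09 for MS+ over FBS, 0.27 for MS− over FBS and -0.25 for MS+ over MS−. In the blocked fit 4 targets rose and 3 fell for MS+ over FBS, 4 rose and 1 fell for MS− over FBS, and 1 rose and 2 fell for MS+ over MS−. Of all features, 28.2%, 20.5% and 10.1% were called either way in that fit. The 2 lower in MS+ than in MS− were Lif (-0.77, limma adjusted p 0.269, 0.0190 with the block) and Ier3 (-0.45, 0.313, 0.00408 with the block). Cx3cl1 was among those lower in MS+ than in FBS (-1.11, 0.190, 0.00216 with the block).

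**Figure D5:**
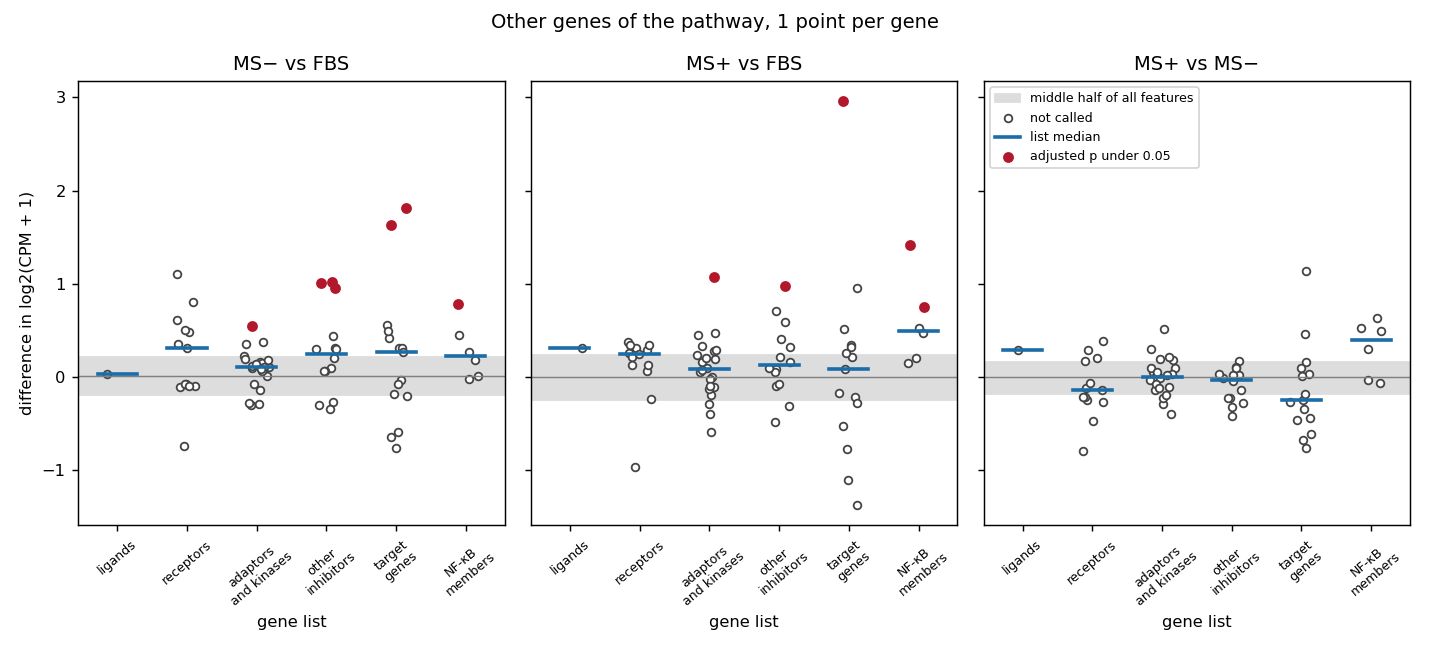
Difference in log2(CPM + 1) (y axis) of each tested gene of 5 pathway lists and of the 6 NF-κB genes (x axis), in 3 panels by comparison. Red points had a limma adjusted p under 0.05 without a block, blue bars are list medians and the grey band is the middle 50% of all 9820 features. Red points are present in both comparisons with FBS, Cxcl1 being the highest at 2.96, and absent between MS+ and MS−.

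The libraries held 5463316 to 5991889 reads. Of 9 fibroblast markers, Col1a1, Col1a2, Vim, Pdgfra, Pdgfrb and Thy1 were abundant, but Dcn and Lum had 7 and 17 reads in all and Prg4 67. Of 12 macrophage markers, 7 had 0 reads in every library, Ptprc, Aif1 and Itgam among them. The sum of that list was 13.8 to 15.6 CPM in FBS, 17.2 to 20.9 CPM in MS− and 16.5 to 18.9 CPM in MS+, most of it Cd14. The markers not at 0 were Cd14 (518 reads in all libraries), Cd68 (31), Csf1r (17), Mrc1 (15) and C1qb (1). The macrophage sum was higher in both rat sera than in FBS, as was Cd14, at 12.6 CPM in FBS, 17.8 CPM in MS− and 15.4 CPM in MS+. Csf1r went the other way, at 0.66, 0.46 and 0.36 CPM in the same order. The means of Cd68 (0.91, 0.55 and 1.28 CPM) and Mrc1 (0.49, 0.18 and 0.63 CPM) were lower in MS− and higher in MS+ than in FBS. With so few reads these directions are not secure. Cd68 was at 0.54 and 2.02 CPM in MS+ of rats 1 and 2, against 0.82 and 0.99 CPM in FBS. Mrc1 was at 0 in every library of rat 2. The fibroblast sum differed too, at 71218 to 78205 CPM in FBS, 55081 to 57263 CPM in MS− and 62655 to 65285 CPM in MS+, and the part of either list in the results was not tested. Lymphocyte markers summed to at most 3.60 CPM and endothelial markers to 0.181 to 1.47 CPM over the libraries. In bulk RNA a change in the share of cells and a change of RNA per cell cannot be told apart, and FBS differs from the rat sera in species as well as in donor.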

How the data were processed

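Messenger RNA of RASFLs was enriched on oligo(dT) beads, fragmented, copied from random primers and sequenced, 1 library per rat and medium. Per the labels and the study's methods, the authors aligned reads to rat rn4 with Bowtie2 2.1.0, counted them per transcript with HTSeq 0.5.4p3 (intersection-nonempty mode) and deposited a normalized signal, reads divided by the TMM-scaled library size (CPM). Reads were recovered from the step of each column, the worth of 1 read (100% of values whole within 1e-06 reads; 5463316 to 5991889 reads per library). HTSeq drops reads shared by overlapping rows; none of the 6 measured members overlapped another row. Strand use is not given in the sources used here.

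Features were kept if both libraries of at least 1 group reached 1 CPM (9820 features). Differences were tested with limma 3.58.1 in R 4.3.3 (lmFit, eBayes with trend, two-sided, log2(CPM + 1), medium as the only term, all 6 libraries), with Benjamini-Hochberg adjustment over all features; fold changes on this scale understate those of low genes. Since the labels give the same 2 rats in every group, a second fit took the rat as a block. The difference between the rats correlated by 0.49 to 0.62 between media. The first fit leaves this pairing out, and the printed SEs and intervals of the media and the fits without 1 library rest on it. For MS+ over MS− it called 2 of 9820 features, and the blocked fit 987. Other alternatives were edgeR 4.0.16, limma-voom and DESeq2 1.42.0 on recovered reads, other pseudocounts, filters and scalings, rows summed by symbol, and leaving out each library.

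The members and lists were chosen with earlier results of these data known. All 10 members are named. Of the lists (ligands, receptors, adaptors and kinases, other inhibitors, targets), at most the 3 largest changes past the adjusted threshold with or without the block were eligible for printed values. Not all of those are printed, and some further genes called in the blocked fit are named without values. Tnfsf12 and genes at 0 reads are named because they were few, after their values were seen. Coordinates of transcripts are rn4 as deposited, written 1-based; promoters are GRCr8.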

Additional observations from a re-analysis of the deposited data

How the results depend on the processing

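Of 342 recomputed differences of the 6 members over 19 alternatives and 3 comparisons, 304 kept their direction and side of the threshold, 11 became called, 9 lost their call and 18 changed sign. The number of members called between MS+ and MS− was 0, and 1 with the replicate block in limma, 2 with edgeR and the block and 2 with limma-voom and the block. Between MS− and FBS it was 1, and 2 in each of those 3 paired fits. Leaving out 1 library gave 0 to 2 members between MS+ and FBS in place of 2, and 0 to 1 between MS− and FBS, where fewer samples enter the fit. Other pathway genes called between MS+ and MS− were 0, and 7, 8 and 8 in the 3 paired fits and 2 with DESeq2. Between MS+ and FBS they were 3, and 20, 21 and 20 in the paired fits, 2 with no filter on low values and 1 to 3 with 1 library left out. Between MS− and FBS they were 6, and 16, 18 and 18 in the paired fits, 1 with no filter on low values, 3 with limma-voom and 0 to 3 with 1 library left out; for the filter and limma-voom the cause was not tested.

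Signs changed only in differences that no fit called. Nfkbib between MS− and FBS was -0.0056 with DESeq2 size factors, -0.025 with library totals, -0.0022 with edgeR, -0.0050 with limma-voom and the block, -0.013 with DESeq2 and -0.16 to 0.17 with 1 library left out. Birc3 between MS− and FBS was 0.00050 with edgeR, 0.0013 with edgeR and the block, and -0.28 to 0.23 with 1 library left out. With 1 library left out, Rela between MS+ and MS− was -0.12 to 0.062, and Nfkbie was -0.34 to 0.21 between MS+ and MS−, -0.069 to 0.48 between MS+ and FBS, and -0.0032 to 0.55 between MS− and FBS. No scaling moved the median of all features by more than 0.05 on the log2 scale. With 2 libraries a group, and 15 to 35 reads per library for Birc3, precision is limited.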
